A study of Mus musculus with 15 samples.

Results

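The genes described are the 37 mitochondrially encoded genes of the mouse, namely 13 mRNAs, 2 ribosomal RNAs (rRNAs) and 22 transfer RNAs (tRNAs). They were chosen by symbol, as all genes whose Ensembl identifier carries a symbol that starts with mt-, and they are 37 of 52636 identifiers in a table of raw read counts. The table came from RNA sequencing of 15 libraries of mouse epiblast-like cells (EpiLCs), in which the transcriptional response to ERK signalling and its reversal were followed.

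All cells were CRAFR26, a line with a c-RAF kinase construct that is switched on by 4-hydroxytamoxifen (4OHT) and drives ERK. All were grown for 48 h in N2B27 medium with bFGF at 12 ng/ml, Activin A at 20 ng/ml and the tankyrase inhibitor XAV939 at 1 µM. All were held for 2 h in the FGF receptor inhibitor PD17 (PD173074) at 250 nM before induction, so the controls carried it too. The 0h group (n = 3) received no 4OHT. The 2h and 4h groups (n = 4 each) were collected after 2 h and 4 h of 4OHT at 250 nM, and the rev group (n = 4) after 4 h of 4OHT and 2 h more with a MEK inhibitor. No group was held as long as rev without the MEK inhibitor, so inhibitor and elapsed time cannot be told apart in rev. The libraries came from 2 clones of the line, clone 4 with 7 libraries and clone 8 with 8. The 0h group held 1 library of clone 4 and 2 of clone 8, since the submitters discarded 1 sample, and the other groups held 2 of each clone. Values per library are given in the order clone4_1, clone8_1, clone8_2 for 0h and clone4_1, clone4_2, clone8_1, clone8_2 for the other groups.

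Mitochondria keep a small circular genome of their own. It is transcribed from both strands into long precursors that are cut at the tRNAs, which releases the rRNAs of the mitochondrial ribosome and the mRNAs for core subunits of respiratory complexes I, III and IV and of ATP synthase (complex V). The polymerase, the transcription factors, the RNA-processing enzymes and most respiratory subunits are encoded in the nucleus. ERK is a kinase best known for its effect on nuclear genes, in epiblast cells downstream of FGF receptors.

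The library totals ran from 1552022 to 13004556 counts, and every 4h library, at no more than 6658950, lay below every library of the other groups, the smallest of which had 8667880. The 4h libraries also had fewer genes with a count, 15692 to 18769 against 20829 to 23914 elsewhere. RNA had been depleted of rRNA with a NEBNext kit, yet rRNA-derived and other very abundant genes still led. The 9 most abundant genes, which include mt-Rnr2 and mt-Rnr1 at ranks 5 and 7, took 50.2 to 69.8% of all counts at 0h, 48.9 to 67.3% at 2h, 63.3 to 77.9% at 4h and 58.2 to 71.9% in rev. Of the 9, Lars2 took 8.49 to 13.01% of all counts at 4h and 1.76 to 7.98% in the other groups. Outside the 9, Rpph1 took 0.0422 to 0.103% at 4h, against 0.539 to 0.585% at 0h, 0.303 to 0.726% at 2h and 0.158 to 0.414% in rev. Shares are given as a percent of the counts outside those 9 genes, with both mitochondrial rRNAs kept in the sum and the other 7 left out. In CPM (counts scaled to equal totals) over those counts, 10 epiblast markers summed to 4884 to 5728 at 0h and to 4026 to 5028 at 2h. They summed to 2465 to 2997 at 4h and to 3543 to 4290 in rev. Of the 10, 6 were lower and 3 higher in 4h vs 0h (edgeR, adjusted p under 0.05), where 18.9% of all tested genes were lower and 20.5% higher. The 4 neural markers summed to 56.9 to 72.4 CPM at 0h, 102 to 147 at 4h and 50.3 to 62.5 in rev, with 2 of 3 tested genes higher and 1 lower in 4h vs 0h. The 8 primitive endoderm markers came to 25.5 to 32.02, 11.1 to 20.4 and 30.1 to 34.8 CPM (1 lower of 4), the 8 trophoblast markers to 51.8 to 73.8, 21.5 to 103 and 81.8 to 168 (2 higher of 5), and the 8 fibroblast feeder markers to 11.9 to 29.8, 1.59 to 13.6 and 20.9 to 46.4 (2 lower of 3). From 4h to rev the epiblast, neural, primitive endoderm and feeder sums thus moved without overlap. They came to 1.46, 0.451, 1.91 and 3.84 times the 4h mean. Of the 8 feeder markers Postn was at 0, while the 3 tested were all called higher in rev vs 4h, where 15.1% of tested genes were. Of 8 cell death genes, 4 were higher and 0 lower in 2h vs 0h (3.98 and 2.46% of all tested genes). In 4h vs 0h 2 were higher and 4 lower, and in 4h vs 2h 0 were higher and 7 lower. From 4h to rev 2 rose and 1 fell (15.1 and 15.6% of all tested genes). The part of depth, genes detected, abundant RNAs, marker levels and cell death genes in the results was not tested.

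Of the 13 mRNAs, 7 carried nearly all counts, 5 were listed at 0 in every library and mt-Atp6, for an ATP synthase subunit, held 1 count in all. The 5 at 0 were mt-Co2 and mt-Co3 (subunits of complex IV), mt-Nd3 and mt-Nd4l (complex I) and mt-Atp8 (ATP synthase). Of these 6 genes 5 have an almost exact copy in the nuclear genome, in a block of pseudogenes on the minus strand of chromosome 1 in GENCODE M21 (GRCm38). Every window of 50 bases of mt-Co2 (chrM:7013-7696) occurs in Gm28661 or another annotated nuclear transcript, and the shares were 99.9% for mt-Co3, 99.5% for mt-Atp6, 98.8% for mt-Nd4l and 98.0% for mt-Nd3. The first 60 bases of 2 of these genes and of their copies are shown because they are what a short read would have to tell apart, with the single differing base in capitals.

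mt-Co2: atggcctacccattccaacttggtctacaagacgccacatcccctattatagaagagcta
Gm28661: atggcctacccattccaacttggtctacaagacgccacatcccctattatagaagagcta
mt-Nd3: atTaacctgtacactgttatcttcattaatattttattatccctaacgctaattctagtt
Gm28438: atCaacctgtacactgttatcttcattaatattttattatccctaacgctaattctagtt

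The mt-Co2 transcript matched Gm28661 (chr1:24614885-24615565) at all 681 aligned bases. The mt-Nd3 transcript (chrM:9459-9806) differed from Gm28438 (chr1:24612775-24613119) at 1 of 345 aligned bases, T3C counted from the first base of mt-Nd3. Gm10925 matched mt-Atp6 over 678 bases, Gm28437 matched mt-Co3 over 783, Gm10222 matched mt-Nd4l over 294, and Gm28439 matched the first 876 of the 1378 bases of mt-Nd4. GENCODE annotates no copy of mt-Atp8 (chrM:7766-7969), whose place would fall between Gm28661 and Gm10925. The copies did not hold the missing counts, since Gm28438 had 5 to 63 counts per library and the other copies in the block 9 or fewer. Reads that fit several places are left out of many count tables. How they were treated in this one is not given in the sources used here, and the part of the copies in the zeros was not tested. No level of these 6 mRNAs is read from the table.

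Sharing was partial for mt-Nd4 (62.2% of windows) and mt-Co1 (51.1%), small for mt-Nd2 (8.19%) and mt-Nd5 (7.61%), and 0% for mt-Nd1, mt-Nd6, mt-Cytb and mt-Rnr1. It was 1.04% for mt-Rnr2.

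**Figure D1:**
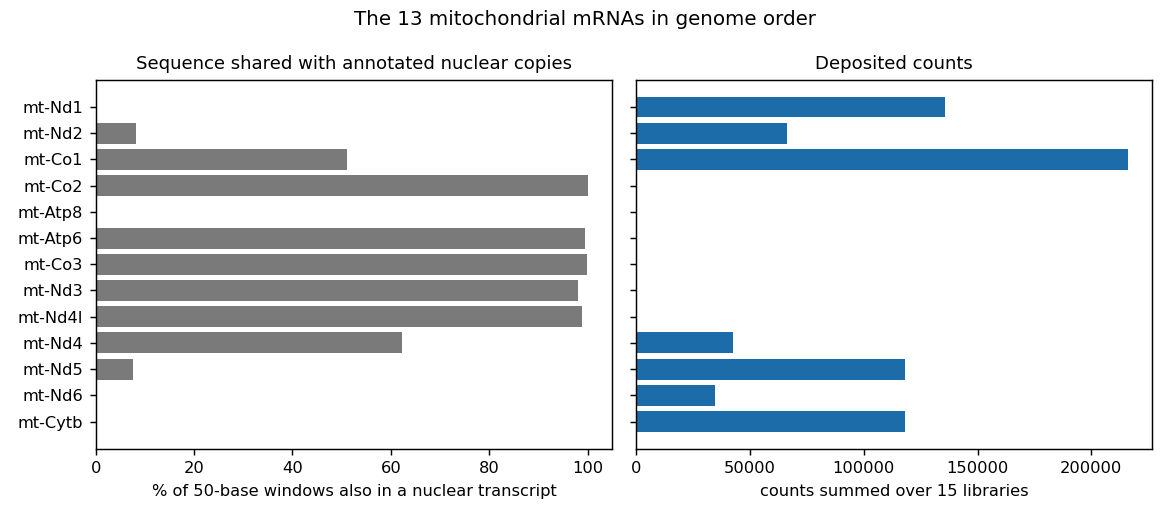
Left, percent of the 50-base windows of each mitochondrial mRNA that also occur in an annotated nuclear transcript; right, its deposited counts summed over the 15 libraries, as a number. The 5 mRNAs with 98.0 to 100% of windows shared have almost no counts, and mt-Atp8 has none with 0% shared with an annotated copy.

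The tRNAs held 957 counts over the 15 libraries, beside 731458 for the mRNAs and 6055079 for the rRNAs, and 13 of the 22 were at 0 in every library. A 0 in a library leaves room for up to 3 counts. The 8 tRNAs encoded on the minus strand, which GENCODE gives for mt-Nd6 and for no other mitochondrial mRNA, held 944 of the counts, and the 14 on the plus strand held 13. The 4 with the most counts were all minus-strand: mt-Tc (cysteine) with 508, mt-Tp (proline) with 385, mt-Tn (asparagine) with 31 and mt-Te (glutamate) with 18. Whether strand was used in counting is not given in the sources used here. Reads from a tRNA or from mt-Nd6 thus cannot be told apart from those of a precursor across it on the other strand. The 2 tRNAs that could be tested are shown whole, as the genes behind nearly all tRNA counts.

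mt-Tc: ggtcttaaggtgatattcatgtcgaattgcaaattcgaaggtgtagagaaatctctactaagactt
mt-Tp: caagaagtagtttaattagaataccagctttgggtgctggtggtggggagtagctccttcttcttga

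The mitochondrial mRNAs made up a larger share of the RNA after 4 h of ERK induction than before it. Their summed share of the counts outside the 9 most abundant genes was 0.721, 0.676 and 0.798% at 0h. It was 3.40, 3.98, 2.62 and 3.37% at 4h, so every 4h library lay above every 0h library, and the group means, 3.34 ± 0.560% (SD, n = 4) and 0.731 ± 0.0616% (n = 3), differed 4.57-fold. At 2h the share was 0.663, 1.78, 1.43 and 0.492%. Those libraries were split: clone4_2 and clone8_1 lay above all 0h libraries and clone4_1 and clone8_2 below them, so each clone had 1 high and 1 low library. In rev the share was 1.07, 1.98, 0.981 and 1.56%, below every 4h library and above every 0h library. Its mean was 0.418 times that of 4h and 1.91 times that of 0h. The split at 2h was not confined to mitochondrial RNA. In clone4_2 and clone8_1 the epiblast markers summed to 4026 and 4111 CPM, against 4906 and 5028 in clone4_1 and clone8_2. The abundant Gm26917 took 6.95 and 7.82% of all their counts, against 12.3 and 22.9%. Over all genes they were the closest 2h pair (chi-square per degree of freedom 11.3, others 36.3 to 221). What lay behind the split was not tested.

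The rRNAs followed the mRNAs at a higher level. At 0h their share was 6.15, 6.53 and 7.40%, at 2h 7.23, 14.9, 12.4 and 5.51%. At 4h it was 22.6, 23.5, 20.3 and 24.5%, and in rev 9.76, 14.8, 10.03 and 12.3%. The same 2 libraries were high at 2h, and the 4h libraries stood above all others. The mean at 4h was 3.39 times that at 0h and the mean in rev was 0.516 times that at 4h. In the library with the highest value all 37 genes together took 27.8% of the counts outside the 9 most abundant genes, against 6.87 to 8.20% at 0h.

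The tRNA share was far lower, and the rev and 4h libraries overlapped. It was 0.00115, 0.00110 and 0.00133% at 0h, between 0.000652 and 0.00309% at 2h, between 0.00149 and 0.00250% at 4h, then between 0.00144 and 0.00244% in rev. The 4h and rev libraries all lay above the 0h libraries, and which of the 2 means was higher hung on the scaling and on single libraries. As a log2 ratio, rev vs 4h was 0.0560 for the share, -0.192 in CPM scaled by TMM (trimmed mean of M-values; means of 9.59 CPM at 4h and 8.40 in rev), -0.0724 without 4h clone4_1 and -0.00954 without rev clone8_1. These shares rest on 11 to 147 counts per library.

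**Figure D2:**
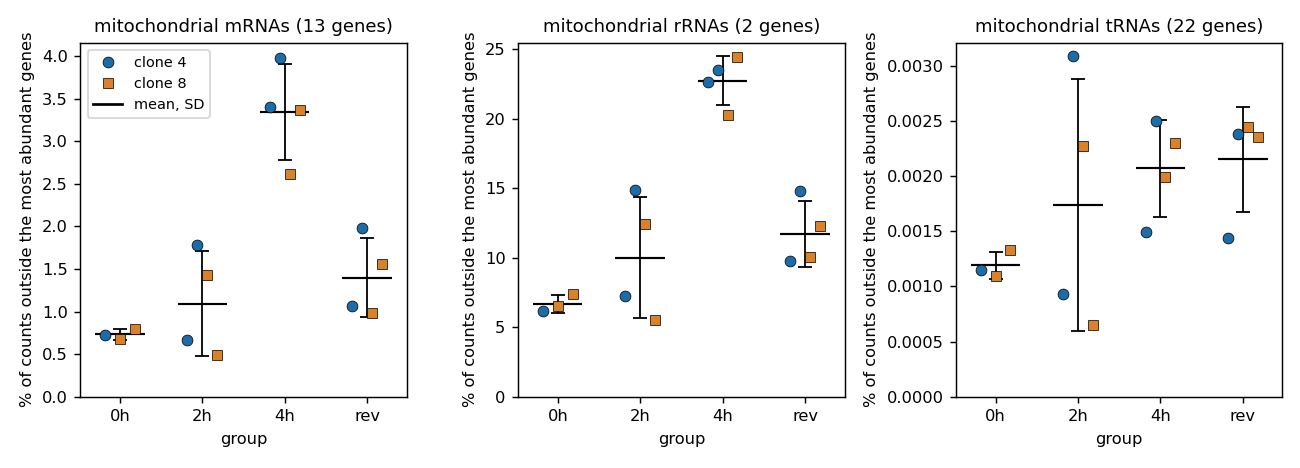
Share of the counts outside the 9 most abundant genes, in percent, for mitochondrial mRNAs, rRNAs and tRNAs; each point is a library, circles are clone 4, squares clone 8, and bars give the group mean with its SD. The 4h libraries stand above all others for mRNAs (2.62 to 3.98%) and rRNAs (20.3 to 24.5%), and the 2h libraries split in both clones.

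Scaling of the libraries by TMM gave the same order in CPM for the mRNAs and rRNAs. The mRNAs summed to 2644 ± 242 CPM at 0h, 4402 ± 2669 at 2h, 15460 ± 2980 at 4h, then 5478 ± 2005 in rev (SD). The rRNAs summed to 24196 ± 2467, 40158 ± 19412, 104956 ± 11481 and 45822 ± 10858 CPM. The spread at 2h was thus the widest relative to its mean. Shares and scaled CPM are relative measures of bulk samples: more mitochondrial RNA, less RNA of other kinds, fewer cells of a type and less RNA per cell cannot be told apart. Under scaling to the total count the median of all tested genes moved to -0.73 on the log2 scale in 4h vs 0h, from 0.03 under TMM, and every mitochondrial mRNA and rRNA kept its direction.

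Of the 37 genes 11 passed the filter on low counts, 7 mRNAs, both rRNAs and 2 tRNAs, and were tested one by one with edgeR among 13451 genes. After 4 h of induction 10 of the 11 were higher than at 0h (adjusted p under 0.05), where 20.5% of all tested genes were called higher. All 11 had every 4h library above every 0h library, as 18.2% of tested genes did. The median log2 fold change was 2.59 for the 7 mRNAs, with a range from 1.94 to 2.74, against 0.03 for all tested genes. The other gene, mt-Tc, had a log2 fold change of 0.49 ± 0.40 (SE) with an adjusted p of 0.350.

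Of the tested mRNAs 5 encode subunits of complex I, which takes electrons from NADH. For mt-Nd1 (chrM:2751-3707) the levels were 401, 420 and 512 CPM at 0h, 438, 1441, 1064 and 307 at 2h, 3059, 3909, 2133 and 2949 at 4h, then 763, 1536, 721 and 1107 in rev. All 4h libraries were above all others and only 2 of the 2h libraries exceeded the 0h range. The log2 fold change in 4h vs 0h was 2.68 ± 0.53 (SE, adjusted p = 0.00261 in edgeR), about as for mt-Nd4 at 2.74 ± 0.57 (0.00368) and mt-Nd2 at 2.65 ± 0.63 (0.00746). Annotated on the other strand, mt-Nd6 (chrM:13552-14070, minus strand) gave 191, 135 and 176 CPM at 0h and 169, 301, 234 and 110.0 at 2h. It gave 641, 837, 487 and 707 at 4h, then 191, 327, 194 and 259 in rev. As for the tRNAs, its reads cannot be told apart from those of a plus-strand precursor. The rev libraries reached down to the highest 0h library, 4h stood above the rest, and the 4h vs 0h change was 1.94 ± 0.32 (0.000775). The neighbouring mt-Nd5 (chrM:11742-13565, plus strand), also for complex I, rose by 2.02 ± 0.38 (0.00199).

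The other 2 tested mRNAs encode the catalytic subunit of complex IV, mt-Co1 (chrM:5328-6872), and the cytochrome b of complex III, mt-Cytb (chrM:14145-15288). For mt-Co1 the levels were 711, 722 and 794 CPM at 0h, 742, 2231, 1682 and 538 at 2h, 4501, 5417, 3636 and 4934 at 4h, then 1312, 2296, 1105 and 1786 in rev. Here too the rev libraries lay between the 0h and 4h libraries without overlap. The 4h vs 0h change was 2.59 ± 0.48 for mt-Co1 (edgeR, adjusted p = 0.00167) and 2.59 ± 0.51 for mt-Cytb (0.00262).

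The rRNAs of the small and the large mitochondrial ribosomal subunit are mt-Rnr1 (12S, chrM:70-1024) and mt-Rnr2 (16S, chrM:1094-2675). By position they stand ahead of the mRNAs on the plus strand. The levels of mt-Rnr1 were 8557, 8762 and 9959 CPM at 0h, 10172, 25075, 19279 and 7345 at 2h, 41638, 48067, 36318 and 47467 at 4h, then 14286, 23777, 15708 and 19203 in rev. Those of mt-Rnr2 were 13628, 14692 and 16990 at 0h, 17914, 37590, 30219 and 13039 at 2h, 60241, 63315, 53943 and 68835 at 4h, then 22699, 36688, 22505 and 28424 in rev. For both, 0h, rev and 4h formed separate ranges and 2h spanned those of 0h and rev. In 4h vs 0h mt-Rnr1 rose by 2.22 ± 0.39 (SE) and mt-Rnr2 by 2.00 ± 0.34 on the log2 scale (edgeR, adjusted p = 0.00124 and 0.00106).

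The tRNA mt-Tp gave 23, 14 and 14 counts at 0h and 5, 29, 17 and 16 at 4h, which in CPM was 1.24, 0.94 and 1.70 against 3.05, 7.16, 3.87 and 6.03. The log2 change of 2.03 ± 0.72 (SE) had an adjusted p of 0.0398 in edgeR. This call was lost without any of the 0h libraries, or without clone4_2 or clone8_2 of 4h, with an adjusted p of up to 0.126. The counts of mt-Tc were 44, 43 and 21 at 0h and 5, 18, 18 and 8 at 4h, or 2.38, 2.87 and 2.54 against 3.05, 4.44, 4.10 and 3.02 CPM, and under scaling to the total count its log2 change of 0.49 turned to -0.31.

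**Figure D3:**
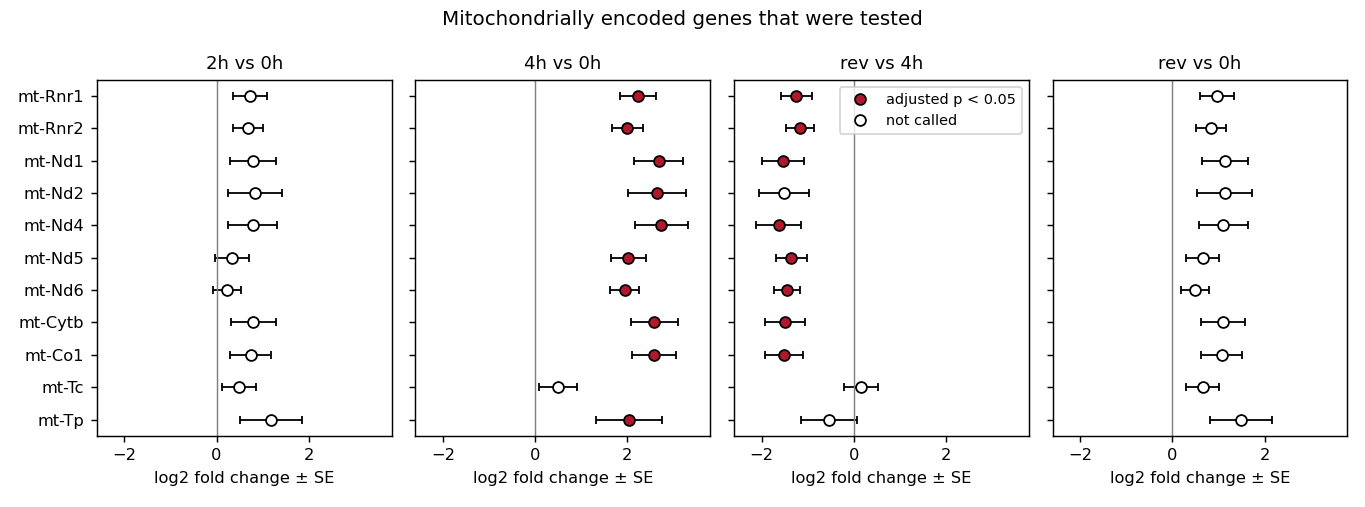
Log2 fold changes with their standard errors from edgeR for the 11 mitochondrial genes tested, in 4 comparisons; filled points have an adjusted p under 0.05. The mRNAs and rRNAs lie between 1.94 and 2.74 in 4h vs 0h and between -1.63 and -1.16 in rev vs 4h, while no gene is called in 2h vs 0h or rev vs 0h.

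At 2h none of the 11 genes was called against 0h by edgeR, and none had an unadjusted p under 0.05, where 6.45% of all tested genes were called (3.98% higher, 2.46% lower). DESeq2 called 0 as well. All 11 log2 fold changes were positive, from 0.22 for mt-Nd6 to 1.18 for mt-Tp, and all 11 genes overlapped between the groups, where 10.1% of tested genes did not overlap and were higher and 8.99% lower. Their sign rested on the 2h libraries clone4_2 and clone8_1. Without both, which were picked for their high values, 10 of the 11 were negative, from -0.58 to 0.01. This is a description, with no test. Leaving out 2h clone8_2 alone let mt-Tp pass with an adjusted p of 0.0377.

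Between 2h and 4h 9 genes rose, the 7 mRNAs and both rRNAs, where 19.7% of tested genes were called higher. The same 9 had every 4h library above every 2h library, as 12.8% of tested genes did. The log2 changes ran from 1.69 to 1.95 for the mRNAs, and were 1.495 for mt-Rnr1 and 1.33 for mt-Rnr2. With only these 2 groups in the fit 5 remained called, mt-Co1, mt-Nd5, mt-Nd6 and both rRNAs. There mt-Nd1, mt-Nd4, mt-Cytb and mt-Nd2 had adjusted p-values of 0.0525, 0.0545, 0.0542 and 0.0917 in edgeR. The call of mt-Nd2 was also lost without 2h clone4_1 (0.0517) and with no filter beyond 1 count (0.0580).

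In rev 8 genes were lower than at 4h, both rRNAs and 6 mRNAs, where 15.6% of tested genes were called lower. For the 7 mRNAs the median log2 change was -1.51, with a range from -1.63 for mt-Nd4 to -1.36 for mt-Nd5, against 0.02 for all tested genes. The change was -1.25 ± 0.34 (SE) for mt-Rnr1 and -1.16 ± 0.30 for mt-Rnr2 (edgeR, adjusted p = 0.0181 and 0.0142). The complex I mRNA mt-Nd2 had a like change, -1.51 ± 0.54, with an adjusted p of 0.0567 in edgeR and 0.0206 in DESeq2, which called 9 genes. The 9 mRNAs and rRNAs had every rev library below every 4h library, as 10.8% of tested genes did. The number of calls rested on single libraries: it was 3 without rev clone4_1 (mt-Rnr2, mt-Nd5 and mt-Nd6), 4 without rev clone8_1, and 5 without 4h clone4_2 or without 4h clone8_2. For the tRNAs the changes were 0.16 ± 0.37 (mt-Tc, adjusted p = 0.787) and -0.54 ± 0.62 (mt-Tp, 0.555).

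In rev no gene was called against 0h by edgeR or by DESeq2, where 11.2% of all tested genes were called in either direction by edgeR. An unadjusted p under 0.05 was found for 6 of the 11. All 11 log2 changes were positive, from 0.49 ± 0.30 for mt-Nd6 (adjusted p = 0.342) to 1.49 ± 0.67 for mt-Tp (0.180). Of the 11, 10 had every rev library above every 0h library, as 14.7% of tested genes did, and in a fit of these 2 groups alone 3 were called, mt-Rnr1, mt-Tc and mt-Tp. Neither a return to the 0h level nor a remaining difference is thus shown. The comparisons share libraries, with 0h, 2h, 4h and rev each used in several.

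No difference between the clones was called. Of the 11 genes 0 passed between clone 8 and clone 4, with 0 at an unadjusted p under 0.05, where 18.5% of all tested genes were called, and the log2 differences ran from -0.31 to 0.03. The 4h share of mRNAs was 3.40 and 3.98% in clone 4 and 2.62 and 3.37% in clone 8, and within each clone both 4h libraries were above all others of that clone. The fall from 4h to rev did not differ detectably between the clones, with 0 of 11 called (0 at an unadjusted p under 0.05, 2.8% of all tested genes called). The same held for the rise from 2h to 4h (0 of 11, 0 unadjusted, 3.14%). These log2 differences ran from -0.21 to 0.85 and from -0.05 to 0.61, with SEs from 0.66 (mt-Nd6) to 1.33 (mt-Tp). Agreement of the clones is thus not shown. DESeq2 was not run for these 3 tests, and the 0 calls were the same with the older quasi-likelihood method of edgeR.

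Within the mitochondrial RNA the balance between genes also differed between groups. At 0h mt-Nd5 made up 21.9, 18.7 and 19.4% of the mitochondrial mRNA counts and at 4h 14.1, 14.3, 14.6 and 14.6%, without overlap. In rev it made up 15.5 to 16.1%, between the 0h and the 4h libraries and within the range of 2h. At 2h it was 19.2, 14.3, 14.8 and 20.0%, so the libraries with the larger mitochondrial share, clone4_2 and clone8_1, had the smaller part of mt-Nd5. The minus-strand mt-Nd6 made up 7.34, 5.58 and 6.06% at 0h, 6.55, 4.01, 4.09 and 6.05% at 2h, 4.19 to 4.43% at 4h, then 4.05 to 5.19% in rev, with the same split at 2h. By contrast mt-Nd1 went from 15.4 to 17.6% at 0h to 18.3 to 20.7% at 4h and mt-Nd4 from 5.19 to 5.40% to 6.16 to 6.55%. The part of mt-Co1 stayed between 27.3 and 32.3% in all libraries. These parts are descriptions, and the difference in change between the genes was not tested. They rest almost wholly on 7 of the 13 mRNAs. For mt-Nd6, reads of a plus-strand precursor cannot be told apart from its own.

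The balance of rRNA and mRNA differed as well. There were 8.53, 9.67 and 9.28 rRNA counts per mRNA count at 0h, 10.9, 8.35, 8.67 and 11.2 at 2h, 6.66, 5.90, 7.76 and 7.26 at 4h, then 9.11, 7.50, 10.2 and 7.87 in rev. All 4h libraries were below all 0h and 2h libraries. The mRNA counts in this ratio came almost wholly from 7 of the 13 genes. The ratio of mt-Rnr1 to mt-Rnr2 counts came to 0.628, 0.596 and 0.586 at 0h, 0.568, 0.667, 0.638 and 0.563 at 2h, 0.691, 0.759, 0.673 and 0.690 at 4h, then 0.629, 0.648, 0.698 and 0.676 in rev, higher in each 4h library than in each 0h or 2h library. How far the depletion of rRNA set these levels was not tested.

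**Figure D4:**
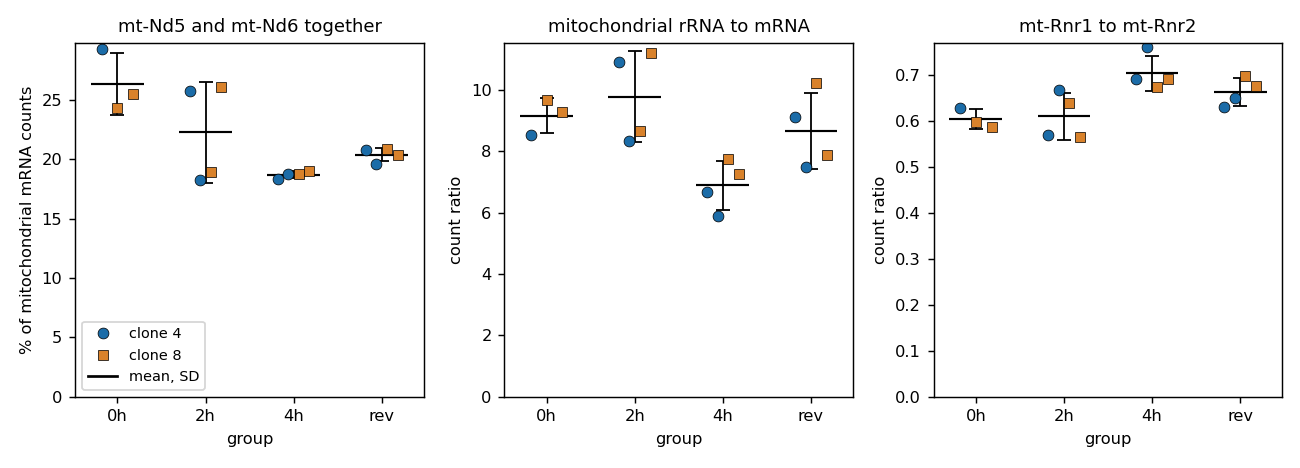
Balance within the mitochondrial RNA per library: percent of mitochondrial mRNA counts from mt-Nd5 and mt-Nd6 together, the ratio of rRNA to mRNA counts, and the ratio of mt-Rnr1 to mt-Rnr2 counts; points are libraries by clone and bars the group mean with its SD. In the first panel the 4h libraries lie at 18.3 to 19.0%, the 0h libraries at 24.3 to 29.2%, and the 2h libraries at either 18.3 and 18.9% or 25.7 and 26.1%.

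Levels of different genes can be set side by side per length, in CPM per kilobase taken over the counts outside the 9 most abundant genes. The spread used is that between libraries, and genes were not compared within each library, so closeness here does not show equal levels. The level of mt-Nd6 carries the strand limit given above. At 0h mt-Rnr2 (26413 ± 2851, SD, n = 3) and mt-Rnr1 (26344 ± 2023) did not differ beyond their spread and stood far above the mRNAs. Next came mt-Co1 (1330 ± 72.5) and mt-Nd1 (1284 ± 164), which did not differ beyond their spread, then mt-Cytb (966 ± 110), mt-Nd6 (892 ± 151) and mt-Nd5 (803 ± 94.8), each within the spread of the next, mt-Nd2 (587 ± 58.0) and mt-Nd4 (282 ± 27.2). At 4h the first places were held by mt-Rnr1 (98276 ± 9432, n = 4) and mt-Rnr2 (84306 ± 6072), with mt-Nd1 (6803 ± 1494) and mt-Co1 (6470 ± 877) next. The place of mt-Co1 and mt-Nd4 hangs on the length used. Per kilobase not shared with nuclear transcripts mt-Co1 reached 2811 ± 153 at 0h, above mt-Nd1 at 1353 ± 172, and mt-Nd4 reached 774 ± 74.7, above mt-Nd2 at 671 ± 66.3.

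Nuclear genes that copy, transcribe and process the mitochondrial genome were called in both directions, at shares near or below those of all tested genes. Of 67 listed, 62 could be tested. At 4h 7 were higher and 10 lower than at 0h (edgeR, adjusted p under 0.05), where 20.5% of all tested genes were higher and 18.9% lower. Their median log2 change was -0.05 against 0.03 for all tested genes. At 2h 0 were higher and 2 lower than at 0h (3.98 and 2.46% of all tested genes). Between 4h and rev 7 rose and 5 fell (15.1 and 15.6% of all tested genes), with a median of 0.03.

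Among the activators of mitochondrial gene expression, Ppargc1b, a coactivator of the PGC-1 family, rose by 0.83 ± 0.24 (SE) in 4h vs 0h (edgeR, adjusted p = 0.00790) and fell by 1.22 in rev vs 4h (0.000272). It had been lower at 2h, with a change of -1.57 ± 0.24 (0.000164), and rose by 2.40 ± 0.24 from 2h to 4h (1.05e-07). Esrra, a nuclear receptor that works with PGC-1 coactivators, was lower at 4h, with a log2 change of -1.21 ± 0.24 (0.000515). Mrpl12, a protein of the mitochondrial ribosome, was lower at 4h, at -0.89 ± 0.15 (9.85e-05). Tfam, which packages mitochondrial DNA and is needed for its transcription, stood at 35.2 ± 2.97 CPM at 0h, 22.2 ± 4.28 at 4h and 35.1 ± 3.41 in rev (SD). It changed by -0.65 ± 0.13 in 4h vs 0h (0.000442) and rose by 0.66 ± 0.12 in rev vs 4h (0.000289), the reverse of the mitochondrial mRNAs. The mitochondrial RNA polymerase Polrmt was lower in 2h vs 0h, with -0.55 ± 0.16 (0.0496), and rose from 2h to 4h by 0.54 ± 0.16 (0.0107). In 4h vs 0h its change was -0.01 ± 0.17 (0.984).

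Among the genes for RNA processing and modification, Mtpap, the mitochondrial poly(A) polymerase, rose by 0.82 ± 0.19 (SE) in 4h vs 0h (edgeR, adjusted p = 0.00157), and Mto1, which modifies mitochondrial tRNAs, by 0.58 ± 0.20 (0.0246). Ptcd1, a pentatricopeptide repeat protein of mitochondrial RNA metabolism, was lower at 4h, at -0.94 ± 0.28 (0.0119). In rev vs 4h Nsun4, an rRNA methyltransferase, rose by 0.88 ± 0.20 (0.00185), and Fastkd1, of a family that acts on mitochondrial mRNAs, fell by 0.59 (0.0351). Of the genes for mitochondrial DNA, Rnaseh1 rose by 0.56 ± 0.19 (0.0274) and Primpol fell by 0.67 (0.00411). None of these changes reached the size of those of the mitochondrial mRNAs in 4h vs 0h.

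The nuclear genes for the other respiratory and ATP synthase subunits moved the other way more often. This list of 75 genes was drawn up after values had been seen, and supports nothing by itself. In 4h vs 0h 33 were lower and 6 higher (edgeR, adjusted p under 0.05), with a median log2 change of -0.33. Of all tested genes 18.9% were lower and 20.5% higher there. In rev vs 4h 37 were higher and 1 lower (15.1 and 15.6% of all tested genes), with a median of 0.31. In 2h vs 0h edgeR called none, where 6.45% of all tested genes were called. Cox4i1, a nuclear subunit of the complex IV to which mt-Co1 belongs, had 86.7 ± 8.61 CPM at 0h, 38.0 ± 9.35 at 4h and 75.0 ± 9.92 in rev (SD), a change of -1.18 ± 0.17 (SE) in 4h vs 0h (5.18e-05). Atp5e, an ATP synthase subunit, had the lowest log2 change of the list, -2.02 ± 0.38 (0.00119), and Ndufa3, a complex I subunit, the highest that was called, 0.80 ± 0.22 (0.00630).

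**Figure D5:**
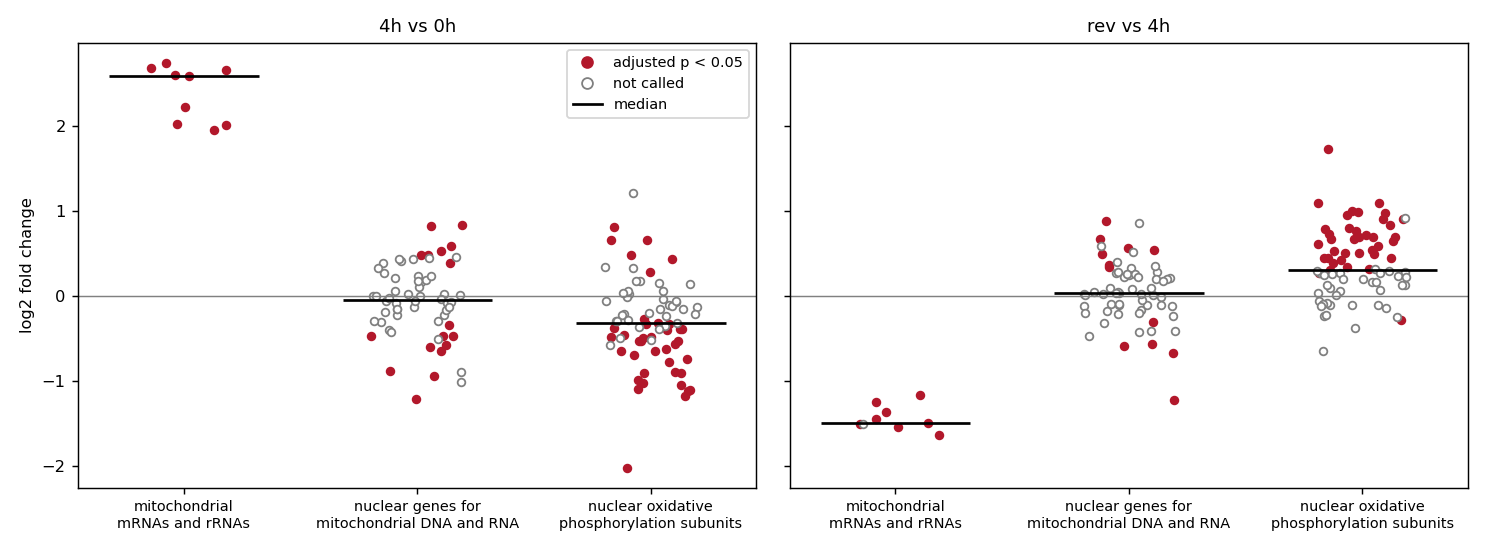
Log2 fold changes from edgeR of the 9 mitochondrial mRNAs and rRNAs tested, 62 nuclear genes for mitochondrial DNA and RNA, and 75 nuclear oxidative phosphorylation subunits, in 4h vs 0h and rev vs 4h; filled points have an adjusted p under 0.05 and lines are medians. The median of the nuclear subunits is -0.33 and then 0.31, while the mitochondrial genes lie above every nuclear gene of both lists in the first panel and, except for Ppargc1b at -1.22, below them in the second.

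The genes whose log2 levels followed the summed mitochondrial mRNAs most closely over the 15 libraries, among 6230 compared, were R3hdm1 (Pearson r = 0.984), Ubap2l (0.977), Rprd2 (0.964), Cep170 (0.963) and Supt20 (0.958). Over the 11 libraries without 4h, which are part of the 15 the genes were picked on, the values were 0.950, 0.972, 0.913, 0.893 and 0.875. Their range was narrower: R3hdm1 went from 35.5 ± 2.10 CPM at 0h to 74.4 ± 4.74 at 4h and 48.8 ± 10.2 in rev (SD). The libraries share groups and scaling, and these are descriptions chosen from many genes.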

How the data were processed

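From each sample 1 µg of total RNA went through rRNA depletion and library preparation with NEBNext kits, per the labels' protocols. The authors deposited whole-number raw counts per gene, with no normalization seen in the values. The submitters' processing notes name STAR 2.5.3a, bcl2fastq 2.19.1 and mm10. The counting tool, the annotation, and the handling of strand and of reads with several matches are not given in the sources used here. Sequencing batches are not in the labels. Within groups the libraries varied beyond counting error (chi-square per degree of freedom 5.46 to 221). The labels give clones and replicate numbers, not separate cultures, so p-values measure the spread between these samples, which may be partly technical.

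Names, transcripts and positions came from GENCODE M21 (GRCm38), which held 52403 of the 52636 identifiers. Windows of 50 bases of each mitochondrial transcript were looked up in all nuclear transcripts. No genome sequence was searched.

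Genes were kept by filterByExpr (minimum count 10, minimum total 15), scaled by TMM and tested with the two-sided quasi-likelihood test of edgeR 4.0.16 (R 4.3.3) with group and clone as terms over all 15 libraries. Genes were called at a Benjamini-Hochberg adjusted p under 0.05 over 13451 genes. Clone differences came from a fit with a coefficient for every group in each clone. Sums over genes got no test. The steps were tested on simulated data. Alternatives were DESeq2 1.42.0, other scalings, filters, terms and samples, and leaving out each library. The fit without 2h clone4_2 and clone8_1 and the older quasi-likelihood method of edgeR were added after seeing the data.

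The members and lists were chosen with earlier results of these data known. Nuclear genes were named by rule: the 3 largest called rises and falls in 4h vs 0h and in rev vs 4h with a mean of at least 1 CPM, and the 5 genes most correlated with the summed mRNAs among those with at least 10 CPM. Polrmt and the oxidative phosphorylation genes fell outside the rule and were chosen after their values were seen.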

Additional observations from a re-analysis of the deposited data

Results flagged for a closer look

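Among 69 sets of 4 libraries that were checked (shares, ratios, parts of the mRNA counts and CPM of single genes at 2h, 4h and in rev), 1 had a library far from the others. It was the tRNA share in rev, where clone4_1 stood at 0.00144% and the other libraries between 0.00235 and 0.00244%. The gap to the nearest library was 0.912 of the range of the group, above the 95% critical value for 4 samples. Chance flags about 1 in 20 such sets, more than were found here.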

How the results depend on the processing

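The mRNAs and rRNAs kept their direction from 0h or 2h to 4h and from 4h to rev under every alternative run. Called genes in rev vs 4h were 5 with no filter beyond 1 count, and 3 to 8 when 1 library was left out. With only the groups compared in the fit, 5 were called in 4h vs 2h and 3 in rev vs 0h. Leaving out 1 library gave 0 to 1 in 2h vs 0h, 9 to 10 in 4h vs 0h and 8 to 9 in 4h vs 2h. As log2 ratios of group means, the mRNA share in 4h vs 0h was 2.192 outside the 9 most abundant genes, 1.86 as a share of all counts and 2.55 in TMM-scaled CPM. For rRNAs these were 1.76, 1.44 and 2.12, and for tRNAs 0.795, 0.427 and 1.15. The rRNA ratio in rev vs 4h was -0.955, and -1.20 in TMM-scaled CPM. The tRNA ratio in 4h vs 2h was 0.254, turned to -0.0383 as a share of all counts and ran from -0.0186 (without 2h clone8_2) to 0.686 when 1 library was left out. In rev vs 4h it was 0.0560, turned to -0.192 in TMM-scaled CPM, and ran from -0.0724 (without 4h clone4_1) to 0.207, with -0.00954 without rev clone8_1. The causes were not tested.

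Libraries of the same clone and replicate number deviated together (r of 0.046 to 0.436), no more than those of the same clone and another number (0.079 to 0.439), so the numbers were taken not to pair samples beyond the clone. With a replicate block by clone and number, 0 genes were called in 2h vs 0h, 9 in 4h vs 0h (mt-Tp was lost), 9 in 4h vs 2h, 9 in rev vs 4h (mt-Nd2 was gained) and 0 in rev vs 0h. Depth limits the tRNAs most, with 11 to 147 counts per library.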
